A study of Mus musculus with 8 samples.

Results

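Retinoic acid is made from vitamin A inside tissues, acts on nuclear receptors and is then broken down. The 10 genes described here carry these steps in the mouse testis. They were chosen by name, as *Aldh1a1*, *Aldh1a2*, *Aldh1a3* and *Rdh10* for synthesis, *Cyp26a1* and *Cyp26b1* for breakdown, *Rara*, *Rarb* and *Rarg* for the receptors, and *Stra6* for the uptake of retinol. All 10 are among the 40840 genes listed in each count table, and all 10 passed the filter on low counts that left 19104 genes for testing.

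RNAseq was carried out on whole testes taken 12 days after birth (P12) from 4 wild type and 4 *Tra2b-cPEko* mice, lettered A to D in each genotype. *Tra2b* encodes the splicing factor Tra2β, and its poison exon is a noncoding exon that stops production of the protein when it is spliced in. The mice called wild type were Tra2bPE fl/+, so they carried a floxed allele of this exon and no Cre. The *Tra2b-cPEko* mice were Tra2b fl/-;Vasa-Cre, on the same C57/BL6 background (C57BL/6J in the methods). Recombination by *Vasa-Cre* is restricted to the germ line, and the somatic cells of the testis retain a floxed copy of the exon. In the *Tra2b-cPEko* genotype, fl and - stand for the floxed and the deleted poison exon, and the deleted allele came through the father's sperm. Somatic cells of *Tra2b-cPEko* mice therefore carry the exon on 1 allele only, and those of wild type mice on each allele. What this difference does to the genes described here was not tested. The methods describe the mice as biologically independent and allow that slight differences in age may change the cell makeup at P12, and no litter or batch is given. Each mouse gave 1 library, with 36757386 to 59101569 reads counted on genes (median 45943100.5 in wild type and 41836490.5 in *Tra2b-cPEko*). Levels are given as CPM, the reads of a gene scaled to 1000000 reads of the library with TMM factors.

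The vitamin A alcohol, retinol, enters cells through the membrane protein Stra6 and is oxidised first to retinal, chiefly by Rdh10, and then to retinoic acid by the Aldh1a enzymes. Cyp26 enzymes oxidise retinoic acid to forms that are cleared. The receptors Rara, Rarb and Rarg pair with RXR receptors on DNA and switch genes on when retinoic acid binds. In the postnatal testis retinoic acid starts the differentiation of spermatogonia and the entry into meiosis, and Sertoli cells are a source of it.

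None of the 10 genes was called different between the genotypes, by edgeR's quasi-likelihood test with an adjusted p under 0.05 or by DESeq2. Among all genes the edgeR test called 30 of 19104 (0.157%), and DESeq2 507 of the 18149 to which it gave an adjusted p (2.79%). The 10 genes had log2 fold changes between -0.32 (*Stra6*) and 0.23 (*Aldh1a3*), with 4 above and 6 below 0. Their median was -0.18 and that of all genes tested -0.00108. The mean log2 CPM of the 10 genes, each weighted equally, was 5.509 to 5.606 in wild type and 5.380 to 5.504 in *Tra2b-cPEko*, so the ranges lay next to each other without overlap. Their summed level, led by *Aldh1a1*, overlapped, with means of 1614.2 ± 50.1 CPM in wild type and 1617.7 ± 20.9 CPM in *Tra2b-cPEko* (SD, n = 4). These values describe the chosen genes, with no test. Their unadjusted edgeR p was under 0.05 for 1 higher gene, *Aldh1a3*, and for 3 lower genes, *Cyp26a1*, *Aldh1a2* and *Rarg*. An unadjusted p under 0.05 was found for 15.3% of all genes, and for 7.07% in the lower direction. The values of the 4 mice per genotype did not overlap for 1 of the 10 genes, *Cyp26a1*, which was lower in *Tra2b-cPEko*. Of all genes tested, 8.54% did not overlap and 4.18% did so with *Tra2b-cPEko* lower. In whole testes, fewer cells of a type and less RNA per cell cannot be told apart. The count of calls over all genes moved when single mice were left out, to 9 without wild type A, 9 without wild type B, 84 without wild type C, 10 without *Tra2b-cPEko* A, 76 without B, 9 without C and 3 without D. The count among the 10 genes was 0 in each of these fits.

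**Figure D1:**
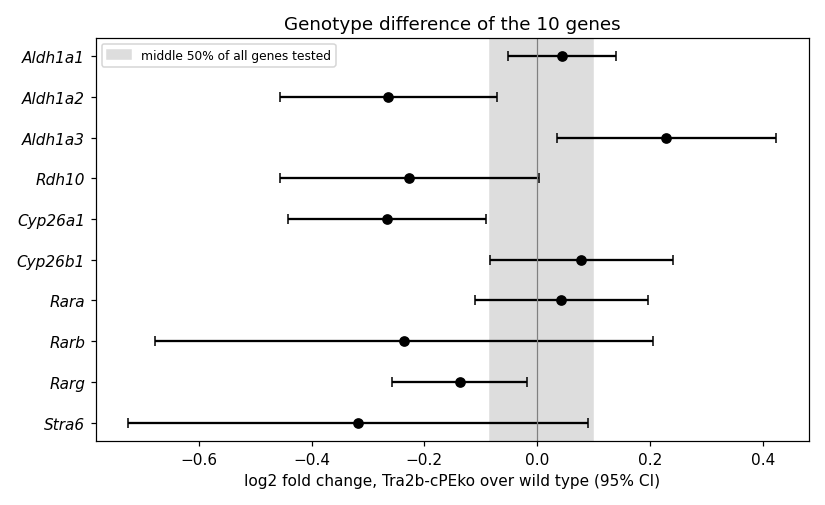
Log2 fold change of each of the 10 genes, *Tra2b-cPEko* over wild type (x axis), with its 95% confidence interval from the edgeR fit, by gene (y axis); the grey band holds the middle 50% of all genes tested, from -0.0831 to 0.0994. The intervals of *Aldh1a2*, *Cyp26a1* and *Rarg* lie below 0 and that of *Aldh1a3* above it, before adjustment for the number of genes tested.

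1 library stood apart in genes that are not of the seminiferous tubule. In *Tra2b-cPEko* mouse C the 8 rete testis markers, led by *Epcam*, summed to 217 CPM, while the wild type mice had 60.9 to 65.1 CPM and the other *Tra2b-cPEko* mice 57.5 to 71.7 CPM. The 13 epididymis markers, led by *Wfdc10*, summed to 365 CPM in mouse C and to between 129 and 155 CPM in the other 7 mice. *Crisp1*, a secretory product of the epididymis, had 107 CPM in mouse C, no count in any wild type mouse, and 0.341, 0 and 0.0817 CPM in *Tra2b-cPEko* A, B and D. The 8 adipocyte markers, led by *Plin1*, summed to 50.02 CPM in mouse C and to at most 16.0 CPM in any other mouse. Leaving mouse C out, the edgeR test called none of the 10 genes, and *Cyp26a1* was still the only one without overlap, against 10.3% of all genes.

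The targeted gene was read over its whole length, which cannot show the deletion of 1 exon and so does not check the genotype labels. *Tra2b* (chromosome 16, 22063266 to 22084824, minus strand, GRCm39) had 158, 166, 156 and 176 CPM in wild type A to D and 199.9, 190.3, 192 and 209 CPM in *Tra2b-cPEko* A to D. The ranges did not overlap. The log2 fold change of 0.27 had a standard error of 0.05, an edgeR adjusted p of 0.0552 and a DESeq2 adjusted p of 0.000195.

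2 short stretches of promoter are shown first, because *Cyp26a1* and *Rarb* are classical genes that retinoic acid itself induces, through elements made of a hexamer repeated in the same direction. The search used the hexamer AGGTCA or its forms AGTTCA or GGGTCA or else GGTTCA, repeated with a spacer of 1, 2 or 5 bases, on both strands, in the 250 bases before each start site of the RefSeq promoter table (GRCm38.p6). Of 32851 windows, 0.164% held such a repeat with a spacer of 1 base, 0.174% with 2 and 0.0883% with 5. The table held 16 windows for 8 of the 10 genes, *Aldh1a1*, *Aldh1a2*, *Cyp26a1*, *Cyp26b1*, *Rara*, *Rarb*, *Rarg* and *Stra6*. A repeat was found in those of *Cyp26a1* and *Rarb*, each with a spacer of 5 bases. Among 66 windows of 50 other pathway genes, a repeat was found for 1 gene, *Bco1*, with a spacer of 1 base. Both stretches below are 30 bases of the gene's own strand, found again by their sequence in GRCm39, and the capitals mark the repeated hexamers.
Cyp26a1: ccgcaattaaagaTGAACTttgggTGAACT
Rarb: gcagcccgggaagGGTTCAccgaaAGTTCA
The *Cyp26a1* stretch lies at chr19:37686211-37686240 on the plus strand, next to the first annotated base of the gene and outside any GENCODE exon. Its repeat, at 32 to 16 bases before the RefSeq start, reads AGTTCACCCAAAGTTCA on the opposite strand. The *Rarb* stretch lies at chr14:5894221-5894250 on the plus strand, inside an annotated *Rarb* exon, in the 5′ untranslated region of some GENCODE transcripts. Its repeat, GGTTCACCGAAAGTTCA, lies 53 to 37 bases before the RefSeq start on the strand of the gene. These are matches of letters, and binding was not measured in these data.

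Among the synthesis genes, the retinaldehyde dehydrogenases differed in level far more than any of them differed between genotypes. *Aldh1a1* (chromosome 19, 20469539 to 20622825, plus strand) had the most reads of the 10 genes, 31162 to 47177 per mouse. It had 843, 828, 888 and 799 CPM in wild type A to D and 867, 849, 896 and 850.5 CPM in *Tra2b-cPEko* A to D. These values lay close together in all 8 mice and overlapped. The means were 839.5 ± 37.1 and 866 ± 21.9 CPM (SD, n = 4), a log2 fold change of 0.04 (standard error 0.04, edgeR adjusted p = 0.665). The 95% interval ran from -0.05 to 0.14, and the value was 0.07 without wild type C, 0.02 without wild type D and 0.03 without *Tra2b-cPEko* C.

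*Aldh1a2* (chromosome 9, 71122630 to 71203527, plus strand), the dehydrogenase that supplies most retinoic acid in the embryo, was at a lower mean level in *Tra2b-cPEko*. It had 165, 149, 129 and 169 CPM in wild type A to D and 122, 144, 119.8 and 124 CPM in *Tra2b-cPEko* A to D. *Tra2b-cPEko* B lay above wild type C, and the remaining *Tra2b-cPEko* mice lay below every wild type mouse. The means were 153 ± 18.2 and 128 ± 11.03 CPM (SD, n = 4), 16.7% lower. The log2 fold change of -0.26 (standard error 0.09, 95% interval -0.46 to -0.07) had an edgeR adjusted p of 0.211 and a DESeq2 adjusted p of 0.0731.

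*Aldh1a3* (chromosome 7, 66040638 to 66077850, minus strand) was the least abundant of the dehydrogenases. It had 12.8, 13.4, 13.9 and 13.0 CPM in wild type A to D, a narrow range, and 13.7, 14.2, 18.3 and 15.9 CPM in *Tra2b-cPEko* A to D. The ranges met at *Tra2b-cPEko* A and wild type C, and the highest value was that of *Tra2b-cPEko* C. The means were 13.3 ± 0.474 and 15.5 ± 2.08 CPM (SD, n = 4), 17.2% higher, with a log2 fold change of 0.23 (standard error 0.09, edgeR adjusted p = 0.261). Mouse C is the library with the raised rete testis, epididymis and adipocyte markers, and without it the log2 fold change was 0.14.

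*Rdh10* (chromosome 1, 16175555 to 16203958, plus strand) encodes the retinol dehydrogenase of the first oxidation step. It had 35.7, 31.3, 31.9 and 39.3 CPM in wild type A to D and 28.9, 35.9, 26.2 and 27.4 CPM in *Tra2b-cPEko* A to D. As for *Aldh1a2*, *Tra2b-cPEko* B lay among the wild type mice and A, C and D below all of them. The means were 34.6 ± 3.72 and 29.6 ± 4.35 CPM (SD, n = 4), 14.4% lower, with a log2 fold change of -0.23 (standard error 0.10, edgeR adjusted p = 0.332). Summed over the 4 synthesis genes, of which *Aldh1a1* made up most, the level was 1040.4 ± 22.4 CPM in wild type and 1038 ± 17.8 CPM in *Tra2b-cPEko* (SD, n = 4).

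**Figure D2:**
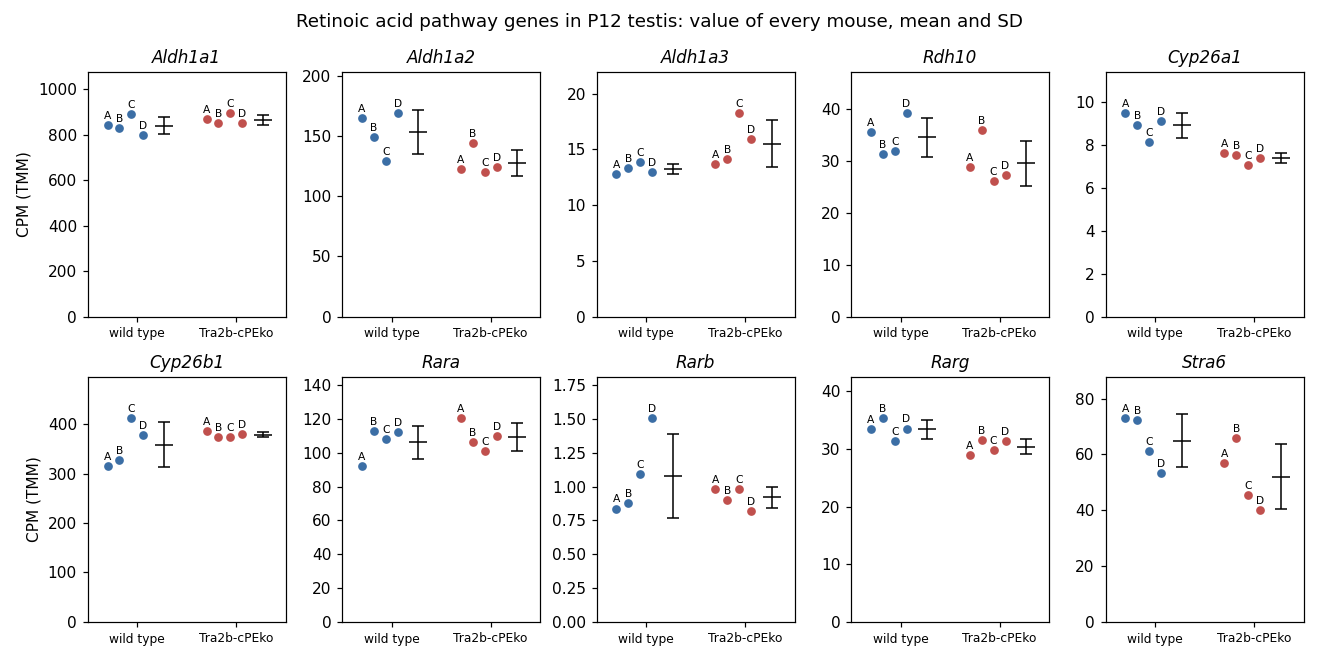
CPM (y axis, from 0, TMM scaled) of each of the 10 genes in every mouse, with wild type in blue and *Tra2b-cPEko* in red, mouse letters above the points, and the mean and SD of 4 mice beside each group. Only in the panel of *Cyp26a1* do the points of the genotypes not overlap, with all *Tra2b-cPEko* mice between 7.10 and 7.64 CPM and all wild type mice between 8.14 and 9.53 CPM.

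Neither breakdown enzyme passed the test, and whether their differences differ from each other was not tested. *Cyp26a1* (chromosome 19, 37686241 to 37689984, plus strand), whose promoter repeat is printed above, had 9.53, 8.94, 8.14 and 9.11 CPM in wild type A to D. The *Tra2b-cPEko* mice A to D had 7.64, 7.54, 7.10 and 7.41 CPM, all below the lowest wild type mouse. The means were 8.93 ± 0.580 and 7.42 ± 0.236 CPM (SD, n = 4), 16.9% lower, on 272 to 538 reads per mouse. The log2 fold change came to -0.27 (standard error 0.08, 95% interval -0.44 to -0.09), and it had the smallest unadjusted p of the 10 genes, 0.00608 in edgeR's quasi-likelihood test. That p ranked 683 among all genes, and its adjusted p was 0.170 (0.0779 in DESeq2), so it did not pass the threshold. The log2 fold change stayed between -0.31 and -0.24 under 16 alternative settings. *Cyp26a1* overlaps no other exon annotated in GENCODE vM39.

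*Cyp26b1* (chromosome 6, 84548396 to 84570890, minus strand), the family member known for keeping retinoic acid away from the germ cells of the fetal testis, was the second gene of the 10 by level. It had 316, 328, 413 and 379 CPM in wild type A to D and 386, 375, 375 and 379.9 CPM in *Tra2b-cPEko* A to D. The *Tra2b-cPEko* mice lay close together inside the wild type range, in which A and B were low and C and D high. The means were 359 ± 45.3 and 379 ± 5.32 CPM (SD, n = 4), with a log2 fold change of 0.08 (standard error 0.07, 95% interval -0.08 to 0.24, edgeR adjusted p = 0.646). This small value depended on single wild type mice, with 0.02 without A, 0.04 without B and 0.15 without C. *Cyp26c1*, the remaining enzyme of the family, was near the limit of detection with 5 to 17 reads per mouse, at 0.214 ± 0.0513 CPM in wild type and 0.280 ± 0.0977 CPM in *Tra2b-cPEko* (SD, n = 4, edgeR adjusted p = 0.564).

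Of the receptor genes, *Rara* (chromosome 11, 98818612 to 98865768, plus strand) encodes a receptor known from Sertoli cells and germ cells. It had 92.1, 113, 108 and 112 CPM in wild type A to D and 121, 106, 101 and 109.9 CPM in *Tra2b-cPEko* A to D. The lowest and the highest of the 8 values were both from mice lettered A, and the other 6 lay between 101 and 113 CPM. The means were 106 ± 9.70 and 109.5 ± 8.22 CPM (SD, n = 4), with a log2 fold change of 0.04 (standard error 0.07, 95% interval -0.11 to 0.20, edgeR adjusted p = 0.816). The sign was not stable, at -0.02 without wild type A and -0.0093 without *Tra2b-cPEko* A.

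*Rarg* (chromosome 15, 102143373 to 102165952, minus strand), the receptor known from spermatogonia, had 33.4, 35.4, 31.4 and 33.5 CPM in wild type A to D. The *Tra2b-cPEko* mice A to D had 28.9, 31.6, 29.9 and 31.3 CPM. The ranges met only at wild type C and *Tra2b-cPEko* B. The means were 33.4 ± 1.63 and 30.4 ± 1.27 CPM (SD, n = 4), 9.02% lower, with a log2 fold change of -0.14 (standard error 0.06, 95% interval -0.26 to -0.02, edgeR adjusted p = 0.270).

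*Rarb* (chromosome 14, 5650540 to 6041094, plus strand), the receptor gene with the promoter repeat printed above, was almost silent. It had 30 to 89 reads per mouse, which were 0.837, 0.875, 1.09 and 1.51 CPM in wild type A to D and 0.982, 0.899, 0.983 and 0.817 CPM in *Tra2b-cPEko* A to D. Wild type D was the highest, and the other 7 mice lay between 0.817 and 1.09 CPM. The log2 fold change of -0.24 (standard error 0.20) had a 95% interval from -0.68 to 0.20 (edgeR adjusted p = 0.607), the widest of the 10 genes. Without wild type D the log2 fold change was -0.024.

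*Stra6* (chromosome 9, 57970967 to 58063543, plus strand), the receptor that passes retinol from its carrier in blood into cells, had the largest difference in size of the 10 genes and a large spread. It had 73.1, 72.4, 61.2 and 53.3 CPM in wild type A to D and 57.1, 65.8, 45.4 and 40.1 CPM in *Tra2b-cPEko* A to D. *Tra2b-cPEko* A and B lay within the wild type range and C and D below it. The means were 65.0 ± 9.52 and 52.1 ± 11.5 CPM (SD, n = 4), 19.8% lower, and the log2 fold change of -0.32 (standard error 0.17, 95% interval -0.73 to 0.09) had an edgeR adjusted p of 0.433. In GENCODE vM39, *Stra6* shares exon positions with *Islr* on the other strand. Whether reads were counted by strand is not given, so reads of such pairs cannot be told apart. The same holds for *Aldh1a1* with *C730002L08Rik*, *Aldh1a2* with *Gm3458*, *Rara* with *Gm46294*, *Gm74308* and *Gm71774*, *Rarb* with *Gm48162* and *Top2b*, and *Rarg* with *Gm63197*.

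To compare the genes with each other, CPM were divided by the kilobases of annotated exon of each gene. The exons were those of GENCODE vM39, while the methods name an NCBI annotation, so these lengths may differ from those of the features counted. The orders and shares below hold for the GENCODE lengths. In wild type the order of these length-scaled levels was *Aldh1a1* (78.2 CPM per kb), *Cyp26b1* (63.0), *Aldh1a2* (33.1), *Rara* (16.9), *Stra6* (7.70), *Rdh10* (7.51), *Rarg* (7.22), *Cyp26a1* (4.49), *Aldh1a3* (2.33) and *Rarb* (0.129). Neighbours in this order did not overlap between mice, except *Stra6* with *Rdh10* and *Rdh10* with *Rarg*, which cannot be ordered on this scale. In *Tra2b-cPEko* the same 4 genes led in the same order, at 80.6, 66.5, 27.6 and 17.4 CPM per kb. The levels of *Rarg* (6.57 CPM per kb), *Rdh10* (6.43) and *Stra6* (6.17) followed without separation between neighbours. With the longest transcript in place of all exons, *Aldh1a1* came to 135 CPM per kb in wild type, further above *Cyp26b1* with 66.9. On that scale *Aldh1a2* (33.1 in wild type, 27.6 in *Tra2b-cPEko*) and *Rara* (30.3 and 31.2) overlapped between mice in both genotypes and could not be ordered. The longest transcript placed *Rarg* (11.3) above *Rdh10* (8.57) in wild type without overlap, while *Stra6* (12.1) overlapped with *Rarg*. In *Tra2b-cPEko*, *Stra6* overlapped with both.

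**Figure D3:**
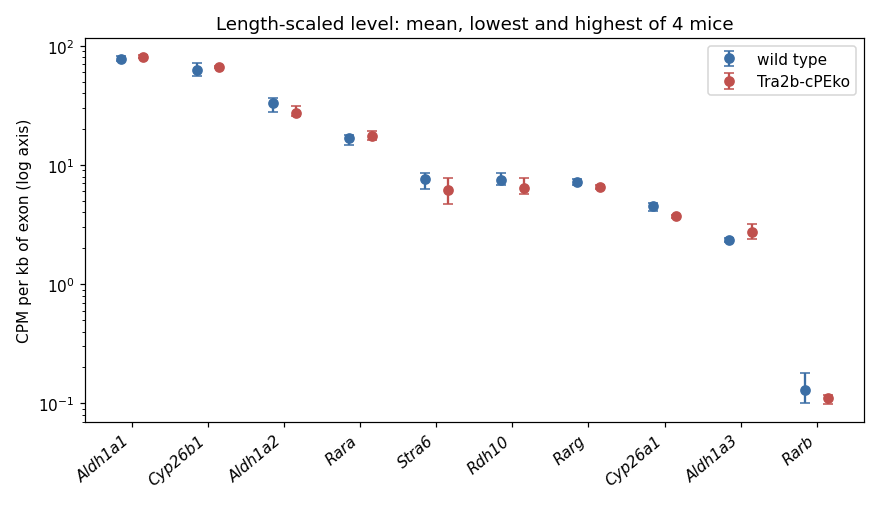
Length-scaled level of the 10 genes (y axis, CPM per kb of exon, log axis), ordered by the wild type mean, in wild type (blue) and *Tra2b-cPEko* (red); points are means and bars run from the lowest to the highest of 4 mice. The levels run from 78.2 CPM per kb for *Aldh1a1* to 0.129 for *Rarb* in wild type, and the bars of the genotypes overlap for every gene but *Cyp26a1*.

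Within each family, 1 member held most of the length-scaled level. *Aldh1a1* made up 68.8% ± 3.18 of the *Aldh1a* total in wild type and 72.7% ± 1.77 in *Tra2b-cPEko*, *Aldh1a2* 29.1% ± 3.26 and 24.9% ± 1.97, and *Aldh1a3* 2.05% ± 0.0990 and 2.46% ± 0.317 (SD, n = 4). *Cyp26b1* made up 93.3% ± 1.12 of the sum of *Cyp26a1* and *Cyp26b1* in wild type and 94.7% ± 0.128 in *Tra2b-cPEko* (SD, n = 4). *Rara* made up 69.6% ± 2.05 of the receptor total in wild type and 72.2% ± 1.98 in *Tra2b-cPEko*, *Rarg* 29.9% ± 2.12 and 27.4% ± 1.97, and *Rarb* 0.530% ± 0.135 and 0.458% ± 0.0481 (SD, n = 4). The *Aldh1a3* share was above the wild type range in all 4 *Tra2b-cPEko* mice (2.198% to 2.86%, against 1.93% to 2.15%). Its highest value was that of *Tra2b-cPEko* C, and it also depends on the levels of *Aldh1a1* and *Aldh1a2*. The CPM of *Aldh1a3* overlapped, and 8.54% of all genes tested had CPM without overlap. For shares no such background was computed. The other family shares overlapped between the genotypes. With the longest transcript as length, the *Aldh1a1* share was 78.8% ± 2.40 in wild type and 81.6% ± 1.27 in *Tra2b-cPEko*, and that of *Aldh1a2* 19.3% ± 2.44 and 16.1% ± 1.43 (SD, n = 4).

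The rest of the pathway was read from lists of 67 other genes, of which 66 were in the tables and 58 were tested. None of the 58 was called by edgeR (adjusted p) or by DESeq2, which gave no adjusted p for *Bco1*, *Adh7*, *Cyp26c1* and *Rxrg*. Of the 58, 31 were above and 27 below 0, with a median log2 fold change of 0.02. Their unadjusted edgeR p was under 0.05 for 4 genes, *Fabp5*, *Akr1b8*, *Rdh1* and *Ncoa1*, with higher values in *Tra2b-cPEko*, a smaller share than the 15.3% of all genes. The genotypes did not overlap for 3 of the 58, with *Ncoa1* higher and *Rdh5* and *Nr2c1* lower, again a smaller share than the 8.54% of all genes. Of the 8 genes not tested, *Rdh7* had no count in any mouse, and *Rbp2*, *Ttr*, *Rpe65*, *Rdh16*, *Dhrs9*, *Aldh8a1* and *Hoxb1* were too low.

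Among the genes for binding and transport (8 tested, 2 above and 6 below 0, median log2 fold change -0.09), *Crabp1*, a retinoic acid carrier of the cytoplasm, was the most abundant per length, with 56.2 ± 4.47 CPM in wild type and 54.4 ± 3.67 CPM in *Tra2b-cPEko* (SD, n = 4). *Fabp5*, a carrier that can bring retinoic acid to Ppard, had 36.4 ± 3.98 and 41.1 ± 3.10 CPM (log2 fold change 0.18, edgeR adjusted p = 0.307). *Rbp4*, the retinol carrier of blood that Stra6 binds, had 23.8 ± 2.86 and 21.2 ± 0.939 CPM (log2 fold change -0.17, edgeR adjusted p = 0.352), and its log2 fold change was -0.11 without wild type A. The log2 fold change of *Crabp1*, -0.05, moved with single mice of both genotypes, from -0.0041 without wild type C to -0.09 without *Tra2b-cPEko* D.

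Of the genes for storage and precursors, 6 were tested, 4 above and 2 below 0, with a median of 0.05. *Dgat1*, which can esterify retinol for storage, led them with 62.1 ± 6.09 CPM in wild type and 58.7 ± 1.97 CPM in *Tra2b-cPEko* (SD, n = 4). Its log2 fold change was -0.08, and -0.05 without wild type A or B and -0.15 without wild type C. *Bco2*, a carotenoid-cleaving enzyme, had a log2 fold change of 0.17 on 58 to 89 reads (edgeR adjusted p = 0.591), and of 0.26 without wild type A. Of the other enzymes of retinol and retinal, 16 were tested, 9 above and 7 below 0, with a median of 0.02. *Akr1b8*, an aldo-keto reductase, had 171 ± 8.93 and 189 ± 10.2 CPM (log2 fold change 0.15, edgeR adjusted p = 0.216). *Rdh1* was barely detected with 10 to 22 reads per mouse, at 0.255 and 0.402 CPM (log2 fold change 0.66, edgeR adjusted p = 0.247). *Rdh5*, a dehydrogenase of cis-retinol, had 4.25 ± 0.124 and 3.73 ± 0.366 CPM without overlap (log2 fold change -0.19, edgeR adjusted p = 0.414).

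The RXR genes and other receptors that share their sites numbered 8, with 3 above and 5 below 0 and a median of -0.05. Their summed level was 413 to 421 CPM in wild type and 401 to 409 CPM in *Tra2b-cPEko*, without overlap, with means of 418 ± 3.28 and 406 ± 3.48 CPM (SD, n = 4). The sum is led by *Nr2c2*, with 129.9 ± 11.4 and 120.2 ± 3.82 CPM, and the mean of the log2 levels of the 8 genes, which weights them equally, overlapped between the genotypes. *Rxrb*, the most abundant per length, had 97.2 ± 5.63 and 92.8 ± 3.07 CPM (log2 fold change -0.07, and -0.03 without wild type B). The orphan receptors *Nr2c2* and *Nr2c1*, which bind the same kind of repeat, had log2 fold changes of -0.11 and -0.09 (edgeR adjusted p = 0.384 and 0.497), and that of *Nr2c2* was -0.05 without wild type A. The 9 coregulators had 7 above and 2 below 0 and a median of 0.07. The coactivator *Ncoa1* had 86.1 ± 4.24 and 94.8 ± 3.80 CPM without overlap (SD, n = 4, log2 fold change 0.14, edgeR adjusted p = 0.215). The coactivator *Ncoa2* had a log2 fold change of 0.14 (edgeR adjusted p = 0.334), and of 0.09 without wild type B.

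Of 11 genes known to respond to retinoic acid, 10 were tested, 5 above and 5 below 0, with a median of -0.04. *Stra8*, the gene through which retinoic acid starts meiosis, was the most abundant per length of these. It had 198, 161, 149 and 162 CPM in wild type A to D and 139, 180.1, 118 and 116 CPM in *Tra2b-cPEko* A to D. Only *Tra2b-cPEko* B reached the wild type range, as it did for *Aldh1a2* and *Rdh10*. The log2 fold change was -0.28 (standard error 0.16, edgeR adjusted p = 0.453), and -0.43 (adjusted p = 0.118) without *Tra2b-cPEko* B. *Meiosin*, the partner of Stra8, had 263 ± 47.8 and 237 ± 38.9 CPM (SD, n = 4, log2 fold change -0.15, edgeR adjusted p = 0.700). *Tgm2*, a target in many cell types, had 109.8 ± 8.96 and 117 ± 6.84 CPM (log2 fold change 0.09, edgeR adjusted p = 0.499), with a log2 fold change of 0.05 without wild type A and 0.06 without *Tra2b-cPEko* A.

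**Figure D4:**
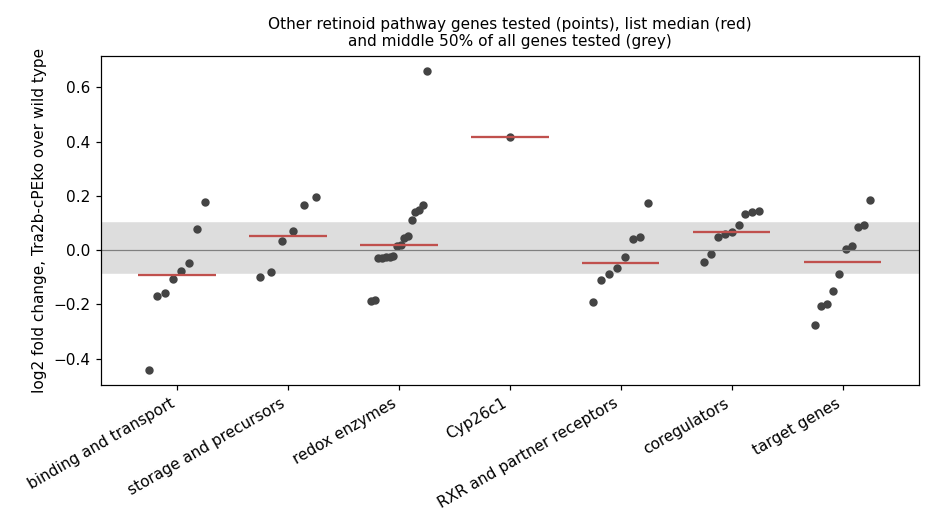
Log2 fold change of the 58 other retinoid genes tested (points; y axis, *Tra2b-cPEko* over wild type), by list (x axis), with the list median as a red line and the middle 50% of all genes tested as a grey band. Medians of the 6 lists with more than 1 gene lie between -0.09 and 0.07, and the point at 0.66 is *Rdh1*, with 10 to 22 reads per mouse.

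Some marker lists differed between mice in ways that ran beside the values above. The 9 genes listed for differentiating spermatogonia were all below 0 (median -0.11), and *Uchl1* was the most abundant. Whole testes cannot show from which spermatogonia the transcripts of these genes came. The 9 genes summed to 1050.2, 1036, 1128 and 1105 CPM in wild type A to D. In *Tra2b-cPEko* A to D they summed to 984, 1005, 895 and 951 CPM, without overlap. DESeq2 called 2 of them lower, *Sohlh1* and *Ccnd2*, and edgeR 1, *Sohlh1*, a transcription factor of spermatogonia, with 47.5 ± 3.02 and 37.4 ± 1.03 CPM (SD, n = 4, adjusted p = 0.0341). *Stra8* and *Kit* are on both this list and that of the retinoic acid targets. The part of these markers in the lower values of *Aldh1a2*, *Rdh10*, *Cyp26a1* and *Rarg* was not tested.

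The 14 pachytene markers, led by *Hspa2*, separated the wild type mice, with 406 and 418 CPM in A and B and 253 and 288 CPM in C and D, and with 268 to 324 CPM in *Tra2b-cPEko*. The 15 markers of leptotene and zygotene spermatocytes, led by *Stag3*, separated the same mice, with 2539 and 2267 CPM in A and B, 1899 and 1982 CPM in C and D, and 1959 to 2034 CPM in *Tra2b-cPEko*. *Stra6* was high in the same wild type mice A and B, and *Cyp26b1* was low in them. In *Tra2b-cPEko*, *Stra6* was highest in B, which had the lowest pachytene sum (268 CPM). *Stra6* was lowest in C and D, which had the highest pachytene sums (324 and 319.9 CPM). The leptotene and zygotene sum of the *Tra2b-cPEko* mice was highest in C (2034 CPM) and lowest in D (1959 CPM). The first principal component of all genes, with 30.7% of the variance, also set wild type A and B (scores of -29.3 and -30.5) apart from wild type D (-3.70) and C, which was above 0. The *Tra2b-cPEko* mice had scores between 9.07 and 24.99. The 14 Sertoli markers summed to 7623 ± 259 CPM in wild type and 7591 ± 384 CPM in *Tra2b-cPEko* (SD, n = 4), with overlap. *Clu* made up much of this sum, with 3643 ± 165 and 3798 ± 225 CPM. Of the 14 genes, 10 were below 0 (median -0.04), and none was called by edgeR or DESeq2. Among them *Amh*, the anti-Müllerian hormone gene, had 189 ± 18.2 and 146 ± 30.3 CPM (edgeR adjusted p = 0.325), and *Aard* had 941 ± 23.8 and 873 ± 62.1 CPM without overlap (edgeR adjusted p = 0.352). What part the spermatocyte markers have in the spread of *Stra6* and *Cyp26b1* was not tested. None of the lists named here had a marker without counts in all 8 mice.

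**Figure D5:**
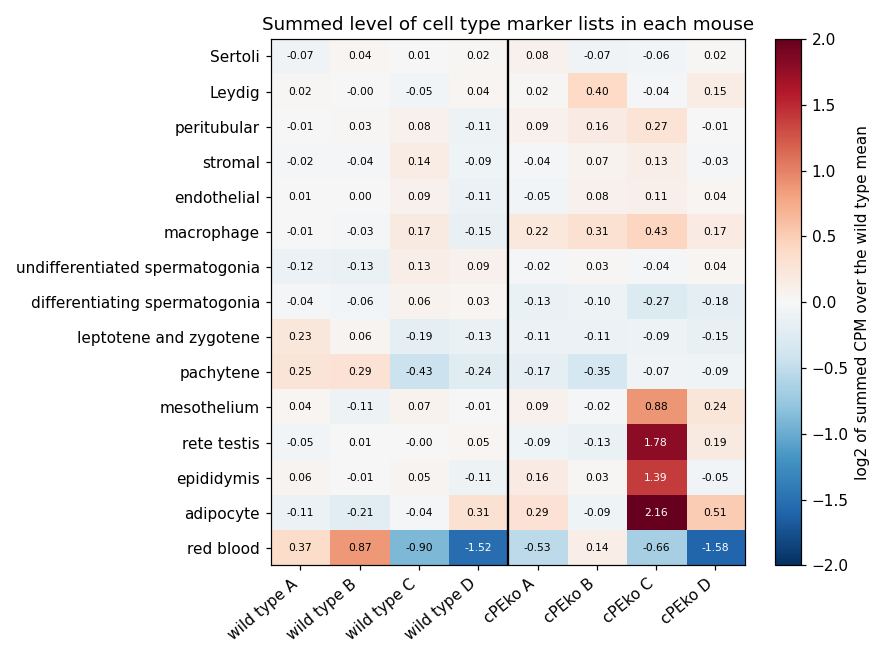
Summed CPM of 15 cell type marker lists (y axis) in each mouse (x axis), as log2 of the ratio to the wild type mean (colour and printed value, colours end at 2 and -2). *Tra2b-cPEko* C stands out for adipocyte (2.16), rete testis (1.78), epididymis (1.39) and mesothelium (0.88) markers, and wild type A and B for higher pachytene markers than wild type C and D.

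The genes whose level followed a leading gene of each role most closely over the 8 mice were looked for among the 15476 genes averaging 1 CPM or more. For *Aldh1a1* they were *Gm19378* (Pearson's r = 0.967 of log2 CPM) and *Nrp2* (r = 0.963), and for *Cyp26b1* they were *Pogz* (r = 0.991) and *Ece1* (r = 0.979). For *Rara* they were *Pald1* (r = 0.993) and *Pced1b* (r = 0.983), and for *Stra6* they were *Atxn10* (r = 0.988) and *Vps35l* (r = 0.978). *Atxn10* had 180.4, 178, 169 and 165 CPM in wild type A to D and 164, 174, 158 and 151 CPM in *Tra2b-cPEko* A to D, high and low in nearly the same mice as *Stra6* but over a narrower range. These are descriptions of 8 libraries that share differences in cell makeup, chosen as the highest of many correlations.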

How the data were processed

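Whole testis RNA of 8 P12 mice was made into stranded mRNA libraries. The authors deposited raw counts per gene, 1 table per mouse, with 5 summary lines that were left out. The submitters' processing notes name HISAT2 2.2.1, HTSeq 2.0.2, SAMtools 1.7.1 and deepTools 3.5.1 with GRCm39, while the methods name HISAT2, Salmon and DESeq2. The strand setting is not given in the sources used here.

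Counts were tested in R 4.3.3 with edgeR 4.0.16 (filterByExpr with a least count of 10 and a least total of 15, TMM, robust glmQLFit, genotype as the only term), with Benjamini-Hochberg adjustment over 19104 genes and a threshold of 0.05. DESeq2 1.42.0 and limma-voom (limma 3.58.1), other scalings and filters, a replicate block and fits without each mouse were alternatives. P-values measure the spread between these mice. Depth was 36757386 to 59101569 reads on genes, and the common biological coefficient of variation was 9.56%. Means are given with SD over 4 mice, and likeness used log2 CPM with a prior count of 2. The methods were tested on simulated data, and no value from those tests is given here.

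The members and lists were chosen with earlier results of these data known. All 10 members were named, and of each other pathway list the 2 genes with the smallest p and the most abundant per length, besides genes without overlap, genes with an unadjusted p under 0.05, *Bco1* for its promoter repeat, and *Meiosin*, which were named after their values were seen. The result for 1 of these genes is not reported here. Of cell type lists the most abundant and the called genes were named, and *Crisp1*, *Amh*, *Aard* and genes that only DESeq2 called after their values were seen. Positions, exon lengths and exon overlaps come from GENCODE vM39 on GRCm39, and promoter windows from RefSeq (GRCm38.p6). The methods name the NCBI annotation of GRCm39 as the reference for the study's own processing. Tables and figures were made in Python 3.11.15 with pandas 2.3.3 and matplotlib 3.10.9.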

Additional observations from a re-analysis of the deposited data

How the results depend on the processing

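Over 16 alternative settings, 156 of 159 fits of the 10 genes kept their sign and stayed on the same side of the threshold. *Rarb* was not tested with a mean count of at least 50. The exceptions were *Rara*, reversed without wild type A (-0.021) and without *Tra2b-cPEko* A (-0.0093), with a range from -0.021 to 0.077 over the fits without each mouse, and *Stra6* under the replicate block. The lowest adjusted p otherwise was 0.0511, for *Aldh1a2* without wild type C, and the cause was not tested. None of the 58 other pathway genes was called under any alternative that gave it an adjusted p. Genes with few reads, such as *Rdh1* and *Cyp26c1*, were not tested with a mean count of at least 50.

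Of all genes, 30 were called in the edgeR fit, 58 with upper-quartile factors, 507 with DESeq2, 11 with limma-voom, 123 without a filter on low counts, 14 with a mean count of at least 50, 12 without robust estimation, and between 3 and 84 with each mouse left out. The count of the 10 genes without overlap was 1, and 2 (*Aldh1a3* and *Cyp26a1*) with upper-quartile factors, where 8.22% of all genes did not overlap. With each mouse left out it was between 1 and 5, the latter without wild type C, where 16.9% of all genes did not overlap. It was 4 without *Tra2b-cPEko* B (14.5% of all genes) and 2 without *Tra2b-cPEko* A (12.5%). With fewer mice per group, more genes lack overlap by construction. *Cyp26a1* was among them in each of these settings.

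With the replicate block, 1 of the 10 genes was called, *Stra6* (log2 fold change -0.33, adjusted p = 0.0488), and 67 of all genes. The letters do not pair the mice by any label. The deviations of same-lettered mice correlated at 0.03, -0.14, -0.04 and 0.12 for A to D, and not every mouse correlated best with its own letter.

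Depth limits *Rarb* (30 to 89 reads), *Cyp26c1* (5 to 17) and *Rdh1* (10 to 22). Counts over genes do not show isoforms, protein, retinoic acid itself or the cell that made a transcript.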

Other observations

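The marker lists of other cells, none of which had a gene without counts in all 8 mice, gave the following values. Macrophage markers were above 0 for 11 of 11 genes, with a median log2 fold change of 0.28. None was called by edgeR, and DESeq2 called 2, *Csf1r* and *Cx3cr1*. The macrophage markers were led by *Mrc1* and summed to 149 to 186.1 CPM in wild type and to 185.6 to 222 CPM in *Tra2b-cPEko*. The lowest *Tra2b-cPEko* sum (D) fell just below the highest wild type sum (C). Their mean log2 level was 3.17 to 3.39 in wild type and 3.42 to 3.69 in *Tra2b-cPEko*, without overlap. Leydig markers, led by *Nr5a1*, summed to 635 to 676 CPM in wild type and to 671, 873, 642 and 731 CPM in *Tra2b-cPEko* A to D. None of these 9 genes was called by edgeR, and DESeq2 called 2 higher, *Hsd3b6* (adjusted p = 0.0308) and *Lhcgr* (adjusted p = 0.00851). Of the 9 genes, 6 were above 0, and the median was 0.40. Of the 10 mesothelium markers, edgeR called 1 higher and DESeq2 4 (*Lrrn4*, *Upk3b*, *Upk1b* and *Gpm6a*). The edgeR call was *Lrrn4*, with 3.75 ± 0.156 CPM in wild type and 6.66 ± 1.33 CPM in *Tra2b-cPEko* (SD, n = 4, edgeR adjusted p = 0.0424). In all, 9 were above 0, with a median log2 fold change of 1.83 over the 10 genes. The exception was *Bnc1*, the most abundant of them, with 38.7 and 34.5 CPM. The unadjusted edgeR p was under 0.05 for 8 higher genes and 1 lower gene, against 15.3% of all genes. The mean log2 level of the 10 genes did not overlap between the genotypes, while their summed level did. This mean was -0.35 to 0.10 in wild type and 0.72, 0.20, 2.19 and 1.26 in *Tra2b-cPEko* A to D, highest in C. *Krt8*, *Krt18* and *Krt19* are on both this list and that of the rete testis markers, which were raised in C.

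Peritubular markers (led by *Acta2*) had a median log2 fold change of 0.12 over 7 genes, stromal markers (*Col1a2*) 0.06 over 8, endothelial markers (*Cdh5*) 0.05 over 10, undifferentiated spermatogonia (*Zbtb16*) -0.01 over 12, and leptotene and zygotene spermatocytes (*Stag3*) -0.09 over 15, of which 11 were below 0. None of these genes was called by edgeR. DESeq2 called 2 of them lower, *Mei1* and *Stag3*, and 1 pachytene marker, *Spata16*. Red blood cell markers, led by *Hbb-bs*, had a median of -0.51 over 6 tested genes, none called, and varied within each genotype, from 26.3 to 138 CPM in wild type and from 25.3 to 83.5 CPM in *Tra2b-cPEko*. *Tra2b-cPEko* C had the highest summed level of rete testis, epididymis, adipocyte, mesothelium, macrophage, peritubular and endothelial markers of all 8 mice. Of the rete testis markers 8 of 8 were tested, of the epididymis markers 4 of 13 and of the adipocyte markers 4 of 8. *Crisp1* was among those not tested. Median log2 fold changes of the tested genes were 2.12, 0.12 and 1.32 in that order, and none was called by edgeR or DESeq2. The mean log2 level of the rete testis markers was 0.12 to 0.96 in wild type. It was 1.14, 0.99, 4.19 and 1.32 in *Tra2b-cPEko* A to D, without overlap.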
